A study of Rattus norvegicus with 11 samples.

Results

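The 9 genes of the chromodomain helicase DNA-binding (CHD) family, Chd1 to Chd9, were followed across rat hippocampal neurons that expressed a linker histone mutant, its wild-type form or a fluorescent protein. They were taken from the count files by their symbols, and all 9 were found among 42172 genes. Polyadenylated RNA was sequenced from 11 libraries of primary hippocampal neurons of CD (Sprague Dawley) rats at day 7 in vitro. In 4 libraries the neurons expressed H1.4 CFT, a mutant H1.4 with a frameshifted C-terminal tail, in 4 they expressed exogenous wild-type H1.4 (WT H1.4), and in 3 they expressed GFP as the control. The delivery, the promoter and the species of the constructs are not given in the sources used here. The submitters call the libraries biological replicates without saying whether they came from separate cultures or animals, so p-values measure the spread between these libraries.

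CHD proteins use ATP to slide, space or evict nucleosomes, and they carry paired chromodomains beside a helicase-like motor. Chd1 and Chd2 make up subfamily I, which acts at transcribed genes. Chd3, Chd4 and Chd5 make up subfamily II, whose members are alternative motor subunits of the nucleosome remodelling and deacetylase complex NuRD. Chd6, Chd7, Chd8 and Chd9 make up subfamily III. In humans, loss-of-function variants in CHD2, CHD7 and CHD8 are known from epilepsy, CHARGE syndrome and autism. Linker histones such as H1.4 bind nucleosomes where DNA enters and leaves, the same particle that CHD motors move.

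The RefSeq promoter table (GRCr8 build, not the build of the counts) held windows for 6 of the 9 genes, 5 of them with a single window. The windows of the NuRD motor genes are shown because these paralogs changed in opposite directions. Each is the 250 bases before the listed start, 5′ to 3′, with GC boxes (GGGCGG or its reverse complement CCGCCC) in capitals.
Chd3 promoter, GRCr8 chr10:54588811-54589060, minus strand: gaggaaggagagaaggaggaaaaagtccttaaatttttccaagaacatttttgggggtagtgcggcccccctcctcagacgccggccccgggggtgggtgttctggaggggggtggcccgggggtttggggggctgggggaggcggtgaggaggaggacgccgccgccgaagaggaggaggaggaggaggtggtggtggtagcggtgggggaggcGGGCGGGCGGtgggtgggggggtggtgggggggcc
Chd4 promoter, GRCr8 chr4:159584568-159584817, plus strand: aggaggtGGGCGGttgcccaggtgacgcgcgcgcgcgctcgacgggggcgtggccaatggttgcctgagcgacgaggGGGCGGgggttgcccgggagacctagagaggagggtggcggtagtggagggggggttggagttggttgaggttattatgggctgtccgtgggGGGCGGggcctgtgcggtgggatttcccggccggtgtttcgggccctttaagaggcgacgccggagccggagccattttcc
Chd5 promoter, GRCr8 chr5:168130862-168131111, plus strand: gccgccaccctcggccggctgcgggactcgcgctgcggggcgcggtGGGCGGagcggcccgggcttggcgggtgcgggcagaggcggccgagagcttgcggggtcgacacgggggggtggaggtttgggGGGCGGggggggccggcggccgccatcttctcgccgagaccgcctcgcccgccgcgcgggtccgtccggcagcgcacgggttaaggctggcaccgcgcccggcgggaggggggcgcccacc
Chd3 had 2 GC boxes, which overlap each other, Chd4 had 3 and Chd5 had 2. A GC box was present in 30.5% of 33469 windows of all genes. The TATA box (TATAAA, both strands) was absent from these windows and present in 12.9% of all, and the CCAAT box (CCAAT, both strands) was found once, in Chd4, and in 34% of all. CpG dinucleotides numbered 14 in the Chd3, 25 in the Chd4 and 40 in the Chd5 window, against a median of 5 over all windows. A match is a description of letters in the window, and the genes that fell and the gene that rose both held GC boxes.

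Gene counts totalled 12070941 in the shallowest library and 18846492 in the deepest, and CHD genes held 21296 to 35328 of these counts. The fewest CHD reads for a single gene were 601 (Chd1 in GFP 3) and the most 13820 (Chd3 in WT 3), so all 9 genes passed the low-count filter. H1f4, the rat gene for H1.4, had 5 to 8 counts in H1.4 CFT libraries, 1 to 5 in WT H1.4 and 0 to 2 in GFP libraries of polyadenylated RNA, which does not check the labels. Within groups, libraries numbered 1 and 2, or 3 and 4, were more alike (variance 1.78 to 2.22 times counting error) than libraries across these number pairs (3.67 to 9.19 times). No label names a batch, so values within each number pair are given beside the results. The main fit treats all libraries as independent. If the libraries of a number pair share a preparation within their group, its p-values may be too small. GFP had 1 library (number 2) in the lower pair, which is assumed to vary like the other groups. Levels are given as CPM, read counts set relative to a TMM-scaled library total. They are not divided by gene length and are therefore compared between groups, not between genes.

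The CHD genes divided in H1.4 CFT neurons. Chd4, Chd2 and Chd6 rose, Chd3, Chd5 and Chd9 fell, and Chd1, Chd7 and Chd8 did not pass. This held against WT H1.4 and against GFP, and both comparisons use the same H1.4 CFT libraries. With the replicate number as a block Chd7 also passed in both (adjusted p = 0.00921 and 0.0434), which made 7 of 9. The block raised the calls over all genes as well, from 6217 to 6809 against WT H1.4 and from 5098 to 5597 against GFP. The changes were modest in size, from 1.15-fold to 1.42-fold. Genes were called at an adjusted p under 0.05 (edgeR quasi-likelihood test, Benjamini-Hochberg over all 17294 genes tested). Against WT H1.4, 6 of 9 CHD genes passed, beside 35.9% of all genes tested (16.7% rose and 19.2% fell). Among the 4517 tested genes within the CHD genes' range of mean levels, 47.5% passed against WT H1.4 and 39.5% against GFP. Against GFP, 6 of 9 passed beside 29.5% of all genes (13.3% rose and 16.2% fell). In each comparison the libraries of those 6 genes did not overlap between groups. Against WT H1.4, 34.6% of all genes had no overlap (16.1% higher and 18.5% lower in H1.4 CFT), and against GFP 35.5% (17.0% higher and 18.5% lower). The median log2 fold change of the 9 genes was 0.032 against WT H1.4 and 0.075 against GFP, beside 0.018 and 0.011 over all genes tested. Their median absolute log2 fold change was 0.23 and 0.32, beside 0.19 and 0.18 over all genes tested and 0.12 and 0.11 over the genes in their range of levels.

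**Figure D1:**
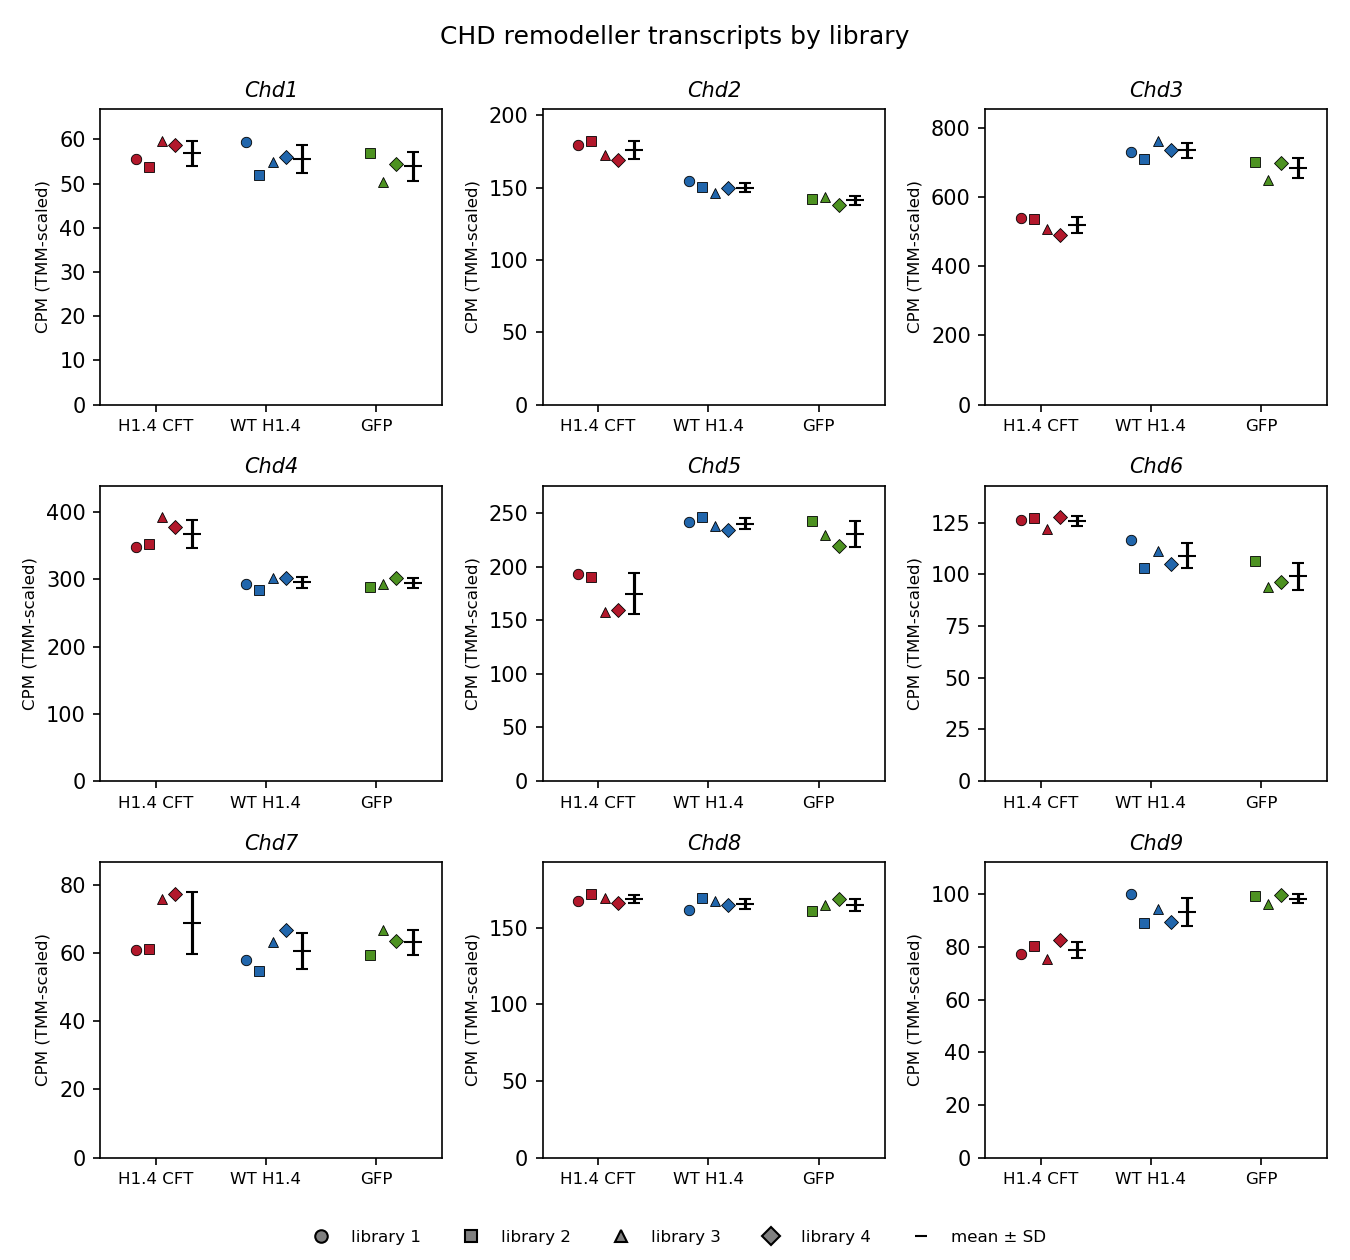
Level of each CHD gene in every library (y axis, TMM-scaled CPM from 0) in H1.4 CFT, WT H1.4 and GFP neurons (x axis), with marker shape for the library number and bars for mean ± SD. Chd3 lies at 489.5 to 539.9 CPM in H1.4 CFT libraries, below all others, and Chd4 at 349 to 393 CPM, above all others.

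Subfamily II held the largest falls and the largest rise against WT H1.4. Chd3, a NuRD motor, had 539.9, 537, 508 and 489.5 CPM in H1.4 CFT libraries 1 to 4, against 730, 711, 762 and 735 CPM in WT H1.4 libraries 1 to 4 and 702, 649 and 697 CPM in GFP libraries 2 to 4. Every H1.4 CFT library was below every other library. The gene fell 1.42-fold against WT H1.4 (log2 fold change -0.50 with SE 0.043, adjusted p = 1.15e-07), and the fall against GFP was 1.32-fold (-0.40, SE 0.046, adjusted p = 4.34e-06). Chd5, the NuRD motor known for its high expression in neurons, had 193, 189.97, 157 and 159 CPM in H1.4 CFT, against 242, 246, 238 and 234 CPM in WT H1.4 and 243, 229.6 and 219 CPM in GFP libraries. The groups did not overlap, and H1.4 CFT libraries 3 and 4 were lower than 1 and 2. Chd5 fell 1.37-fold against WT H1.4 (log2 fold change -0.46 with SE 0.061, adjusted p = 2.96e-05), and by 1.32-fold when set against GFP (-0.40, SE 0.066, adjusted p = 0.000267). Within number pairs the log2 fold change against WT H1.4 was -0.35 in libraries 1 and 2 and -0.58 in libraries 3 and 4, and for Chd3 it was -0.42 and -0.59. Against GFP these values were -0.35 and -0.50 for Chd5 and -0.39 and -0.43 for Chd3.

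Chd4, the broadly expressed NuRD motor, moved the other way. It had 349, 353, 393 and 378 CPM in H1.4 CFT libraries, against 293, 285, 303 and 303 CPM in WT H1.4 and 289, 293 and 302 CPM in GFP libraries. All H1.4 CFT libraries were above the rest, again more so for numbers 3 and 4. Chd4 rose 1.24-fold against WT H1.4 (log2 fold change 0.32 with SE 0.043, adjusted p = 1.69e-05), and by 1.25-fold when set against GFP (0.32, SE 0.047, adjusted p = 4.86e-05), with values of 0.28 and 0.34 within number pairs against WT H1.4. The summed level of subfamily II was 1027 to 1082 CPM in H1.4 CFT, against 1241 to 1303 CPM in WT H1.4 and 1172 to 1234 CPM in GFP libraries, and was lower in every H1.4 CFT library. These are bulk libraries, in which fewer cells of a type and less RNA per cell cannot be told apart.

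**Figure D2:**
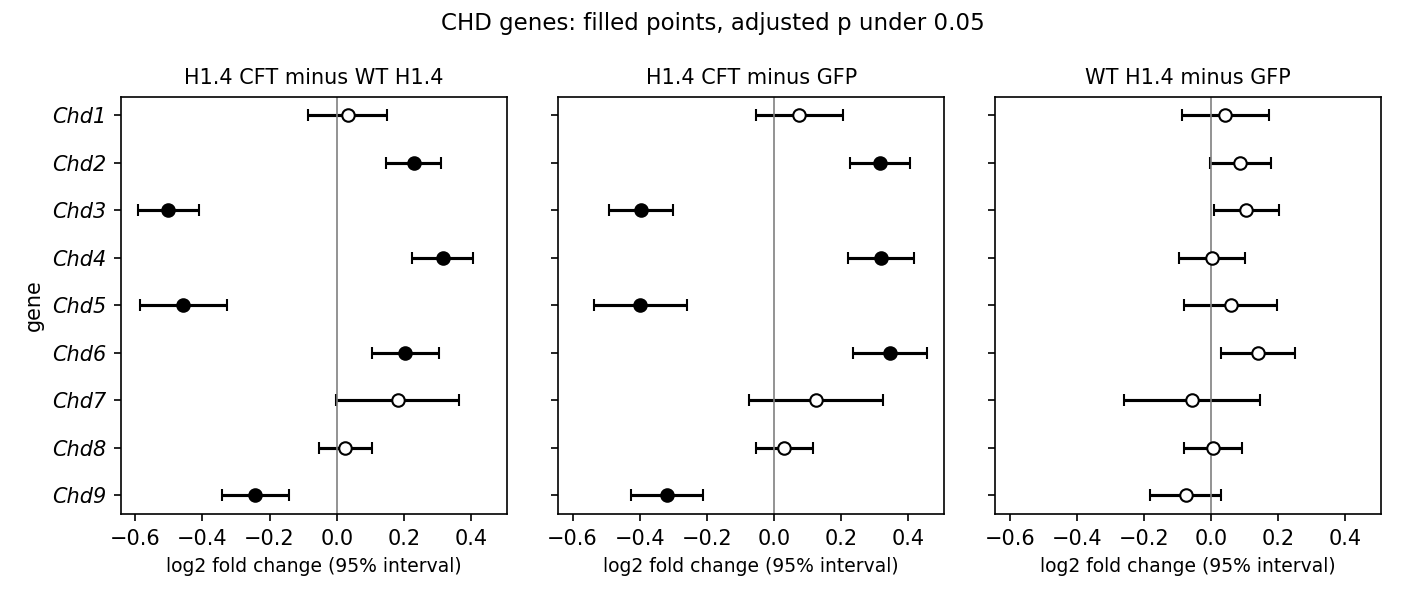
Log2 fold change of each CHD gene (x axis, with 95% interval) in H1.4 CFT minus WT H1.4, H1.4 CFT minus GFP and WT H1.4 minus GFP, with genes on the y axis and filled points for an adjusted p under 0.05. In both H1.4 CFT panels 3 filled points lie above 0 and 3 below, and no point is filled for WT H1.4 minus GFP.

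Read counts of these paralogs were also set against each other within each library, which does not depend on scaling. The ratio of Chd3 to Chd4 reads was 1.55, 1.52, 1.29 and 1.30 in H1.4 CFT libraries, against 2.49, 2.496, 2.52 and 2.43 in WT H1.4 and 2.43, 2.21 and 2.30 in GFP libraries. The ratio of Chd5 to Chd4 reads averaged 0.478 ± 0.0786 in H1.4 CFT libraries, 0.812 ± 0.0411 in WT H1.4 and 0.782 ± 0.0593 in GFP (SD, n = 4, 4 and 3). Both ratios were lower in every H1.4 CFT library than in any other. The ratio of Chd5 to Chd3 ran from 0.309 to 0.357 in H1.4 CFT libraries, from 0.313 to 0.346 in WT H1.4 and from 0.314 to 0.354 in GFP, and the groups overlapped. Of all CHD reads, Chd4 made up 19.96% to 22.7% in H1.4 CFT libraries, 15.3% to 15.9% in WT H1.4 and 15.5% to 16.5% in GFP. For Chd3 these shares were 28.7% to 30.9%, 38.1% to 39.3% and 36.3% to 37.9%. They are shares of reads, not of molecules, and had no test because the members were chosen with results known.

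**Figure D3:**
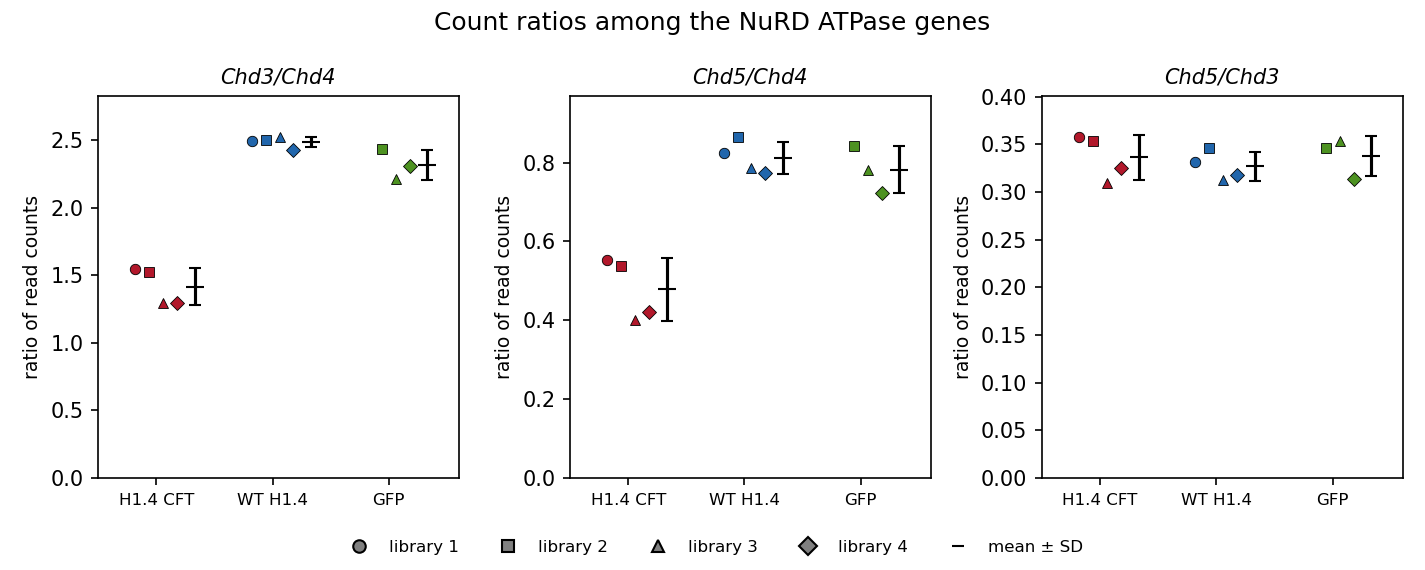
Ratio of read counts (y axis, from 0) of Chd3 to Chd4, Chd5 to Chd4 and Chd5 to Chd3 in each library of H1.4 CFT, WT H1.4 and GFP neurons (x axis), with bars for mean ± SD. Chd3/Chd4 is 1.29 to 1.55 in H1.4 CFT and at least 2.21 in the other groups, while Chd5/Chd3 overlaps among groups.

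In subfamily I, Chd2 rose while Chd1 did not pass. Chd2, known to deposit the histone variant H3.3 at active genes, had 179, 182, 173 and 169 CPM in H1.4 CFT libraries, against 154, 150.2, 146 and 149.6 CPM in WT H1.4 and 142, 144 and 138 CPM in GFP libraries. The H1.4 CFT libraries lay above the rest. Chd2 rose 1.17-fold against WT H1.4 (log2 fold change 0.23 with SE 0.040, adjusted p = 0.000183), and by 1.25-fold when set against GFP (0.32, SE 0.044, adjusted p = 2.48e-05), with 0.25 in libraries 1 and 2 and 0.20 in libraries 3 and 4 against WT H1.4. Chd1, which binds methylated lysine on histone H3, ranged from 53.6 to 59.7 CPM in H1.4 CFT libraries, from 51.9 to 59.4 CPM in WT H1.4 and from 50.4 to 57.0 CPM in GFP, and all groups overlapped. The 95% interval of its log2 fold change was -0.086 to 0.15 against WT H1.4 (adjusted p = 0.691) and -0.055 to 0.20 against GFP (adjusted p = 0.394). Against GFP its value was -0.069 in libraries 1 and 2 but 0.17 in libraries 3 and 4, where it passed (adjusted p = 0.0349). The ratio of Chd1 to Chd2 reads was 0.294 to 0.347 in H1.4 CFT, against 0.345 to 0.385 in WT H1.4 and 0.351 to 0.400 in GFP, with an overlap of H1.4 CFT and WT H1.4.

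Subfamily III moved both ways. Chd6, whose best known roles are in transcription under oxidative stress, had 126, 127, 122 and 128 CPM in H1.4 CFT libraries, against 116, 103, 111 and 105 CPM in WT H1.4 and 107, 94.0 and 96.3 CPM in GFP libraries. The H1.4 CFT libraries stood above all others. Chd6 rose 1.15-fold against WT H1.4 (log2 fold change 0.20 with SE 0.048, adjusted p = 0.00251), and by 1.27-fold when set against GFP (0.34, SE 0.053, adjusted p = 7.48e-05). Chd9, the subfamily member first described in bone-forming cells, had 77.3, 80.5, 75.6 and 82.5 CPM in H1.4 CFT, against 100.3, 89.0, 94.6 and 89.6 CPM in WT H1.4 and 99.3, 96.4 and 99.6 CPM in GFP libraries. The H1.4 CFT libraries were below the others. Chd9 fell 1.18-fold against WT H1.4 (log2 fold change -0.24 with SE 0.047, adjusted p = 0.000541), and by 1.25-fold when set against GFP (-0.32, SE 0.051, adjusted p = 0.000122). Within number pairs against WT H1.4, Chd6 gave 0.198 and 0.201 and Chd9 gave -0.27 and -0.22 for libraries 1 and 2 and libraries 3 and 4. Against GFP the values within number pairs were 0.24 and 0.39 for Chd6 and -0.34 and -0.31 for Chd9.

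Chd7, a developmental regulator at enhancers, had its widest spread among the H1.4 CFT libraries. It had 60.8, 61.2, 75.9 and 77.4 CPM in H1.4 CFT libraries, against 57.9, 54.8, 63.2 and 66.6 CPM in WT H1.4 and 59.4, 66.6 and 63.5 CPM in GFP libraries. In all groups the libraries numbered 3 and 4 were above those numbered 1 and 2, and the groups overlapped. Its log2 fold change against WT H1.4 was 0.18 (SE 0.086, 95% interval -0.0010 to 0.37, adjusted p = 0.113). With the replicate number as a block it was 0.18 and passed (adjusted p = 0.00921), with 0.11 in libraries 1 and 2 (adjusted p = 0.197) and 0.24 in libraries 3 and 4 (adjusted p = 0.000505). Against GFP the value was 0.13 (adjusted p = 0.345), and 0.16 with the block (adjusted p = 0.0434). Within number pairs it was 0.034 in libraries 1 and 2 (adjusted p = 0.817) and 0.24 in libraries 3 and 4 (adjusted p = 0.000743). Chd7 also passed against WT H1.4 without CFT 1 (adjusted p = 0.0334), without CFT 2 (adjusted p = 0.0384) and with no low-count filter (adjusted p = 0.0126). Over all 20 alternatives its log2 fold change against WT H1.4 ran from 0.11 to 0.24, with adjusted p of 0.000505 to 0.288.

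Chd8, a repressor of Wnt target genes, had the smallest range of group mean log2 CPM of the 9. It ranged from 166 to 172 CPM in H1.4 CFT libraries, from 161 to 169 CPM in WT H1.4 and from 161 to 169 CPM in GFP libraries. The groups overlapped, with a within-group SD of at most 3.93 CPM. Its log2 fold change was 0.025 against WT H1.4 (95% interval -0.053 to 0.10, adjusted p = 0.633) and 0.031 against GFP (95% interval -0.054 to 0.12, adjusted p = 0.603). A p above the threshold does not show equal levels. The ratio of Chd7 to Chd8 reads was 0.356 to 0.467 in H1.4 CFT libraries, 0.324 to 0.404 in WT H1.4 and 0.369 to 0.404 in GFP, again with overlap.

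WT H1.4 itself left no CHD gene past the threshold against GFP. In edgeR's test 0 of 9 passed beside 0.943% of all genes, and DESeq2 also gave 0. By edgeR's unadjusted p 2 were under 0.05, Chd6 at rank 976 and Chd3 at rank 1568 of the 17294 genes tested. Chd6 averaged 109 ± 6.07 CPM in WT H1.4 and 98.97 ± 6.69 CPM in GFP (SD, n = 4 and 3, log2 fold change 0.14, SE 0.053, adjusted p = 0.277). For Chd3 the log2 fold change was 0.11 (SE 0.046, adjusted p = 0.379). The libraries of 2 genes, Chd2 and Chd3, did not overlap, beside 12.2% of all genes tested (6.29% higher and 5.94% lower in WT H1.4). In libraries 3 and 4 alone Chd3 (0.16, adjusted p = 0.000628) and Chd6 (0.19, adjusted p = 0.00895) passed as higher in WT H1.4, and in libraries 1 and 2 they were at 0.033 and 0.045 without passing. The 95% interval for Chd4, -0.094 to 0.10, does not reach its log2 fold change of 0.32 in H1.4 CFT against GFP.

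Neuron markers moved beside these changes. The marker counts that follow stand beside 35.9% of all genes passing against WT H1.4 and 29.5% against GFP. The summed level of 10 markers was 3601, 3689, 3119 and 3129 CPM in H1.4 CFT libraries, against 4275 to 4448 CPM in WT H1.4 and 4456 to 4580 CPM in GFP libraries. The sum weighs each marker by its reads. Tubb3 and Map2 entered it with means of 1237 and 905 CPM in H1.4 CFT and 1662 and 1319 CPM in WT H1.4. Snap25 and Slc17a7 did not pass against WT H1.4 (log2 fold change 0.077 and 0.022). Within H1.4 CFT, the libraries with the lowest neuron marker sums, 3 and 4, had the least Chd3 and Chd5 and the most Chd4 and Chd7. These libraries also form a number pair, so a tie to the pair and a tie to the marker sum cannot be told apart. In the other groups the sums spanned less, 4275 to 4448 CPM in WT H1.4 and 4456 to 4580 CPM in GFP. The order of single libraries there differed, but over so small a span it cannot decide whether these levels go with neuron markers. In WT H1.4 the lowest sum, in library 2, went with the least Chd3, but the most Chd5 and the least Chd4 and Chd7. In GFP the lowest sum, in library 3, went with the least Chd3 and the most Chd7, but not the least Chd5 or the most Chd4. Against WT H1.4, 6 of the 10 markers fell and 2, the GABA-synthesis genes Gad1 and Gad2, rose, and against GFP 7 fell and 0 rose. Of 7 astrocyte markers 4 rose and 0 fell against WT H1.4 and 1 rose against GFP, with sums of 1746 to 1824 CPM in H1.4 CFT libraries, 1335 to 1430 CPM in WT H1.4 and 1707 to 1857 CPM in GFP. The astrocyte sums of H1.4 CFT and GFP overlapped. Of 5 markers of dividing cells 1 rose against WT H1.4 and 0 passed against GFP, and their sums were 187 to 247 CPM in H1.4 CFT libraries, 182 to 198 CPM in WT H1.4 and 179 to 205 CPM in GFP. Of 7 endothelial and fibroblast markers 6 were tested, of which 3 rose and 1 fell against WT H1.4 and 1 rose and 1 fell against GFP, with sums of 52.8 to 63.4 CPM in H1.4 CFT libraries, 46.7 to 62.0 CPM in WT H1.4 and 67.8 to 73.4 CPM in GFP. Oligodendrocyte lineage markers summed to 408 to 472, 415 to 497 and 414 to 509 CPM in these groups, with 0 of 7 passing in either comparison. Of 6 microglia markers 2 were tested, and 1 rose and 1 fell in each comparison. The 6 summed to 8.18 to 11.7, 10.5 to 14.1 and 11.1 to 12.7 CPM, and Cx3cr1 was at 0 in all WT H1.4 libraries. No marker of the other lists was at 0 throughout a group. In WT H1.4 against GFP, 2 neuron markers (Gad1 and Gad2), 4 astrocyte markers and 2 endothelial and fibroblast markers fell. No marker of the 6 lists rose there, and 0.943% of all genes passed. Gad1 and Gad2 did not pass in H1.4 CFT against GFP. The part of cell composition in the CHD results was not tested.

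**Figure D4:**
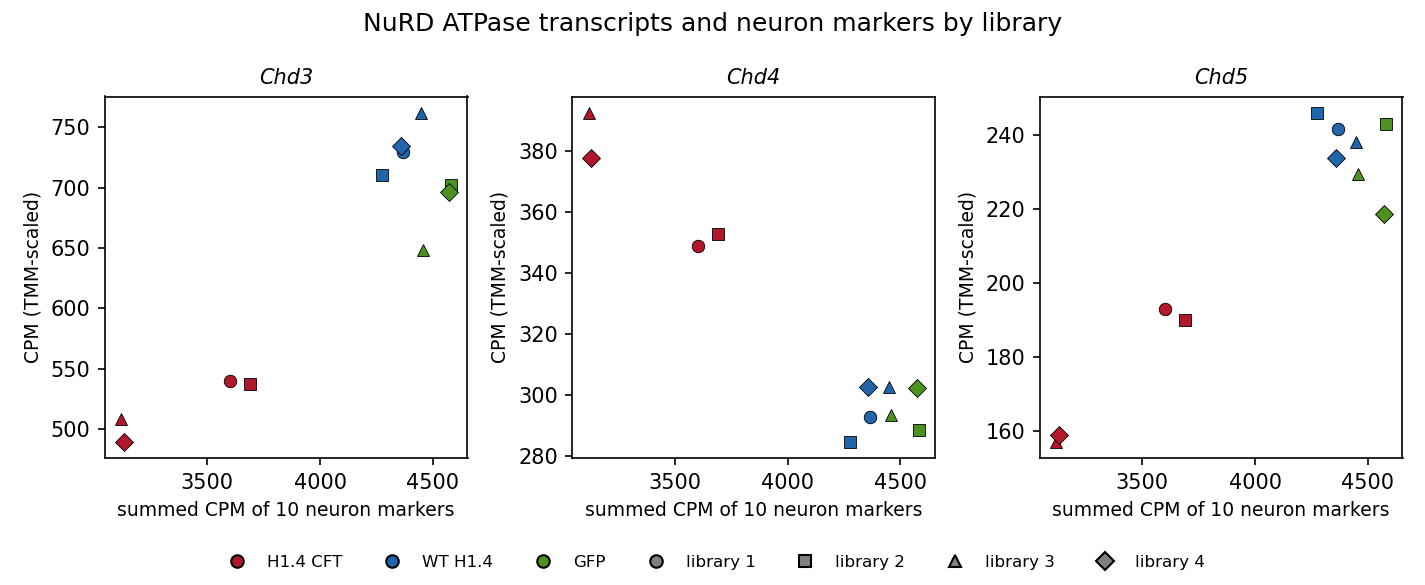
Level of Chd3, Chd4 and Chd5 (y axes, TMM-scaled CPM, not from 0) against the summed CPM of 10 neuron markers (x axis) in each of 11 libraries, coloured by group and with marker shape for the library number. H1.4 CFT libraries stand apart at sums of 3119 to 3689 CPM, below the 4275 CPM or more of the other groups.

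The strand setting of the counting is not given, so it is not known whether reads from the 2 strands of a gene's own sequence were told apart. Reads that the counter set aside as ambiguous, 0.40% to 0.43% per library, are not in the gene counts. Neither are reads that it placed in no gene, 45.2% to 46.0% per library, beside 45.9% to 46.9% assigned to genes. Whether strand had a part in these shares was not tested. In the RefSeq table Chd1 overlaps Chd1l2 and Chd3 overlaps Naa38, a gene of an acetyltransferase complex, which had a log2 fold change of 0.12 against WT H1.4 (adjusted p = 0.389) while Chd3 fell. A lncRNA locus overlapping Chd4, LOC120102389, averaged 47.1 CPM in H1.4 CFT libraries, 35.1 CPM in WT H1.4 and 34.7 CPM in GFP (log2 fold change 0.43 against WT H1.4, adjusted p = 6.51e-05). A lncRNA locus overlapping Chd5, LOC120103139, averaged 18.4, 26.8 and 24.8 CPM in these groups (log2 fold change -0.55, adjusted p = 0.000227). Both moved in the direction of the CHD gene they overlap, which averaged 368, 296 and 295 CPM for Chd4 and 175, 240 and 230 CPM for Chd5. Whether the reads of these loci are separate from those of the CHD genes was not tested. Their changes are therefore not counted as independent of Chd4 and Chd5. The pseudogene LOC108348876, which overlaps Chd9, did not pass (0.021, adjusted p = 0.967), and neither did the lncRNA locus LOC108350929, which overlaps Chd7 (0.14, adjusted p = 0.501).

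The genes nearest in pattern were sought for the 3 CHD genes with the widest range of group mean log2 CPM. Nearness was the root mean square difference of centred log2 CPM over 11 libraries. Nearest to Chd3 were Fam171b, Cdh8 and Cers4 (0.036, 0.043 and 0.044 log2 units). Nearest to Chd5 were Cntnap2, Tubb3 and Snx30 (0.032, 0.035 and 0.037). Tubb3, the neuronal beta-tubulin, averaged 1237 CPM in H1.4 CFT libraries, 1662 CPM in WT H1.4 and 1563 CPM in GFP. Nearest to Chd6 were Flywch1, Gpatch8 and Mapk14 (0.053, 0.054 and 0.059). The distances are descriptions over libraries of 3 groups.

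Other remodeller genes were counted from 6 lists with 80 members, all tested. Against WT H1.4, 30 of the 80 passed, of which 19 rose and 11 fell, near the 35.9% of all genes tested (16.7% rose and 19.2% fell). Their median log2 fold change was 0.038, beside 0.018 over all genes tested. Of the 12 NuRD partners of Chd3, Chd4 and Chd5, 2 rose and 0 fell (median 0.038). These were Mta3 (57.9 ± 3.67 against 48.2 ± 2.42 CPM, log2 fold change 0.26, adjusted p = 0.00196) and the scaffold gene Gatad2a (0.13, adjusted p = 0.0265). The deacetylase genes Hdac1 and Hdac2 did not pass, at 0.074 (adjusted p = 0.458) and -0.066 (adjusted p = 0.244). None of the 4 ChAHP partners, which work with Chd4, passed either (median 0.046).

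The ISWI list held a further pair of related motors that parted. Smarca1 fell 1.51-fold (36.8 ± 4.01 in H1.4 CFT against 55.5 ± 1.35 CPM in WT H1.4, log2 fold change -0.59, adjusted p = 1.77e-06), and Smarca5 rose 1.20-fold (110.4 ± 7.22 against 92.2 ± 6.52 CPM, 0.26, adjusted p = 0.000906). Of 11 ISWI genes 4 rose, Cecr2 by 0.51 on the log2 scale (adjusted p = 0.00031), and 1 fell (median 0.084). Among 26 SWI/SNF genes 6 rose and 7 fell (median -0.0044). Dpf1, a subunit of neuronal SWI/SNF complexes, fell 1.49-fold (91.3 ± 8.61 against 135.8 ± 5.54 CPM, adjusted p = 4.30e-07), while Ss18 rose 1.34-fold and Smarcd1 1.23-fold (adjusted p of 1.98e-05 and 4.81e-05). The motor gene Smarca2 fell (log2 fold change -0.35, adjusted p = 0.0127), and Smarca4 stood at 367 ± 11.8 against 370.4 ± 1.98 CPM (-0.012, adjusted p = 0.827).

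In the INO80 and SWR list 4 of 18 genes rose and 2 fell (median 0.061), led by Nfrkb (log2 fold change 0.34, adjusted p = 5.79e-05), Ruvbl1 (-0.22, adjusted p = 0.00257) and Vps72 (0.18, adjusted p = 0.0036). The motor genes Ino80, Srcap and Ep400 did not pass (0.076, 0.11 and 0.038, adjusted p of 0.303, 0.0607 and 0.482). Of 9 other Snf2-type ATPase genes 3 rose, the repair genes Ercc6, Smarcal1 and Shprh (0.39, 0.53 and 0.18, adjusted p of 0.000172, 0.000521 and 0.00307), and 1 fell, Atrx (-0.16, adjusted p = 0.0112). Hells did not pass (0.063, adjusted p = 0.714). Against GFP 27 of the 80 passed, with 21 rises and 6 falls (median 0.050), beside 29.5% of all genes (13.3% rose and 16.2% fell). In WT H1.4 against GFP 0 of 80 passed by edgeR's test (median 0.015), beside 0.943% of all genes. DESeq2 also gave 0.

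**Figure D5:**
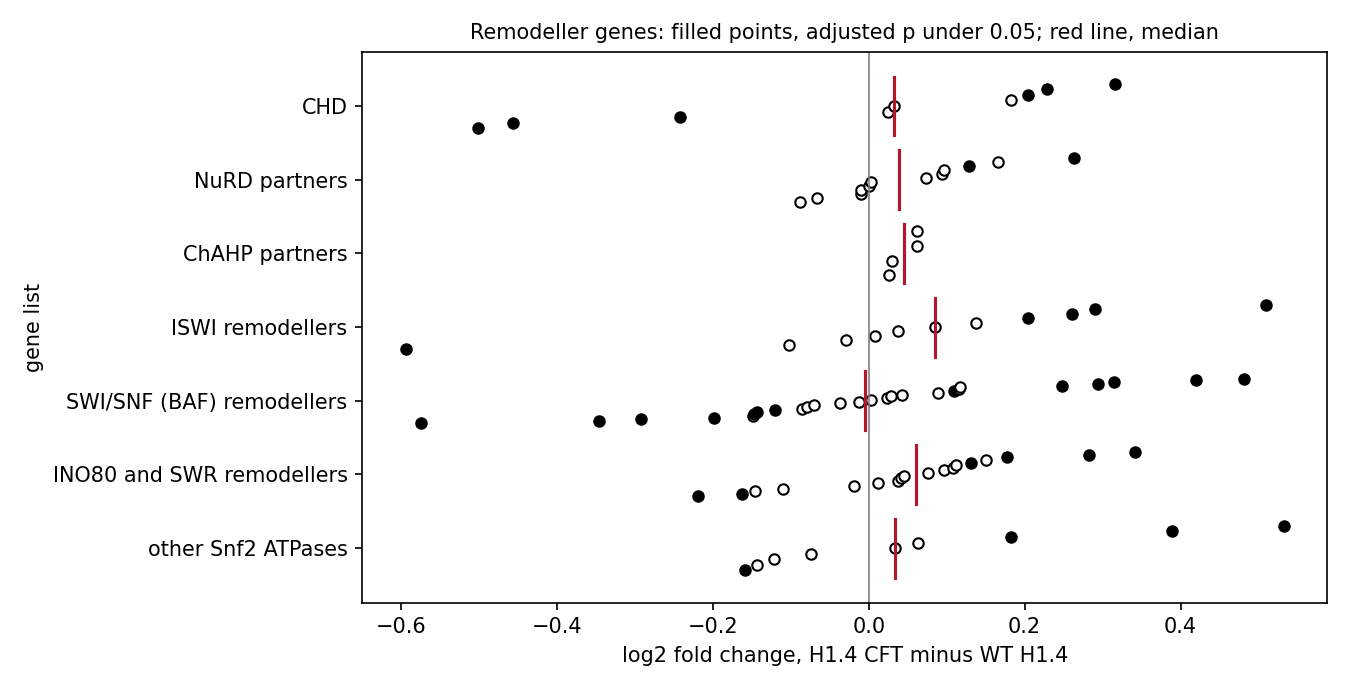
Log2 fold change in H1.4 CFT minus WT H1.4 (x axis) of each CHD gene and each gene of 6 other remodeller lists (rows on the y axis), with filled points for an adjusted p under 0.05 and a red line at the list median. The list medians lie between -0.0044 and 0.084, while single genes reach -0.59 (Smarca1) and 0.53 (Smarcal1).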

How the data were processed

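Polyadenylated RNA of 11 libraries was sequenced. The authors used STAR 2.7.2b, HTSeq 0.10.0 and the mRatBN7.2 build, as the submitters' processing notes list them. Each deposited file holds raw, unnormalised counts by gene symbol. The annotation release and strand setting are not given in the sources used here. The 5 summary entries of the counter were left out.

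All libraries were fitted together in R 4.3.3 with edgeR 4.0.16 (TMM scaling, group term, robust quasi-likelihood test). The filter was filterByExpr with a minimum count of 10 and a minimum total of 15, which left 17294 of 42172 genes. Adjustment was by Benjamini-Hochberg across every tested gene of a comparison, with a threshold of 0.05. The common biological coefficient of variation was 7.02%, with 8 residual degrees of freedom. Intervals for fold changes use the standard error and the moderated degrees of freedom.

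The CHD members, the lists and the tests were chosen with earlier results of these data known. All 9 members are named. From each related list, up to 3 genes past the threshold by smallest p against WT H1.4 are named, with set motor and deacetylase genes whatever their p. Lists are described by counts and medians, without a set test.

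Equal replicate numbers were checked by correlating residual log2 CPM. The correlations were 0.149, 0.174, 0.192 and 0.142 for numbers 1 to 4 of H1.4 CFT with WT H1.4, and 0.255, 0.124 and 0.163 for numbers 2 to 4 of H1.4 CFT with GFP. All exceeded 0.1. Unlike numbers were not correlated and libraries of a number pair are alike, so these values cannot show that single libraries are paired. The block is therefore given as an alternative beside the main fit, which has none. For WT H1.4 with GFP they were 0.206, 0.113 and 0.0927. No pair of libraries agreed within counting error.

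Recovery of known fold changes by this fit was tested on simulated data, with changed genes drawn from all levels. Over the 3 comparisons it recovered 30% to 40% of 1.25-fold, 74% to 80% of 1.5-fold and 88% to 90% of 2-fold changes. The simulated data gave every gene the common coefficient of variation and had no number pairs, so recovery in the real libraries may differ. Alternatives were RLE scaling, DESeq2 1.42.0, no filter, 5 CPM in 3 libraries, the replicate block, only the groups compared, each number pair alone, and omission of each library. The number pair as a term was added after seeing the data.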

Additional observations from a re-analysis of the deposited data

How the results depend on the processing

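In both H1.4 CFT comparisons, the 6 CHD genes called kept their calls and directions under all 20 alternatives. The alternatives overlap in their libraries. Some leave out a library of the group outside the comparison, which bears on it only through the shared spread, filter and scaling. The count of CHD genes passing stayed between 6 and 7 against WT H1.4 when each library was left out, at 6 against GFP, and at 0 in the comparison of WT H1.4 with GFP. The fit to libraries 3 and 4 alone gave 8 calls for H1.4 CFT against GFP (Chd1 and Chd7 added). For WT H1.4 with GFP it gave 2 calls (Chd3 and Chd6), while 1596 of all genes passed there, against 163 with all libraries and 44 without GFP 3. Over all genes, H1.4 CFT against GFP had 3331 calls in libraries 1 and 2 alone, 6694 in libraries 3 and 4 alone and 5098 with all libraries. The replicate block added Chd7 in both H1.4 CFT comparisons (log2 fold changes 0.179 and 0.158, 7 genes passing in each) and changed no other CHD call. Over all genes the block gave 6809 calls against WT H1.4 and 5597 against GFP.

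Of 540 refits of single genes, 13 changed sign, all for genes that had not passed. With libraries 1 and 2 alone, Chd1 gave -0.038 against WT H1.4, -0.069 against GFP and -0.030 in WT H1.4 over GFP, and Chd4 gave -0.0028 for WT H1.4 against GFP. With libraries 3 and 4 alone, WT H1.4 against GFP gave 0.0019 for Chd7 and -0.0055 for Chd8. With each library left out in turn, Chd1 ran from -0.00032 to 0.064 against WT H1.4, and for WT H1.4 against GFP Chd1 ran from -0.00024 to 0.083, Chd4 from -0.011 to 0.023 and Chd8 from -0.011 to 0.024. The cause was not tested. With 3 or 4 libraries in a group, a CHD gene that did not pass may still have changed within its interval.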
